A study of Nicotiana tabacum with 16 samples.

Results

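In tobacco (Nicotiana tabacum) roots, gene models of a short run that were read in K326 had no or almost no counts in both lines that carry nic1 nic2, while the gene models directly beside it were read in every library. The neighbourhood comprised the 201 gene models from Ntab07g011900-1.1 to Ntab07g013900-1.1, out of 63697 in the table, of which 3191 carried the prefix of ID group 7. In these identifiers the digits before g are the ID group and those after it a serial number. The window was laid around the run from Ntab07g012920-1.1 to Ntab07g012960-1.1, which was chosen by its near absence of counts in the nic1 nic2 and nic1 nic2 myc2a libraries. Those low values are therefore given as a description, and where the fit over all gene models calls them, the call is no evidence for the loss. The files pair no gene name with an identifier, and the sources used here do not say that serials follow the order along a chromosome.

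Roots of 4 genotypes were sequenced: the cultivar K326 (4 libraries), K326 with the recessive alleles nic1 and nic2 (3), K326 with the recessive allele myc2a (5), and K326 with all of these alleles (4). The lines were described as nearly isogenic and shared the K326 background, greenhouse pots standing in water, topping at flowering and root collection 18 h later. Per the labels, 3 to 5 plants of each genotype were grown and roots were taken from each, but no library is tied to a plant, so a p-value refers to the spread between libraries, which may be technical. The design asked how root expression differs with the genotype at these loci. An effect of an allele cannot be told apart from any other difference between the lines.

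Nicotine is made in tobacco roots, and removal of the shoot apex, called topping, stimulates its synthesis through jasmonate signalling. The Nic loci control the alkaloid content of the plant. Nic2 is known to hold a cluster of ERF transcription factor genes that activate the genes of nicotine synthesis, and the recessive nic2 allele is known as a deletion of such genes. MYC2a belongs to the bHLH family of transcription factors and acts in the jasmonate response that drives this pathway. None of the gene models below was annotated in the files, so no role is given to any of them, and root markers could not be checked by name.

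Total counts per library were 32167776 to 40858135, and 71836276 in K326 replicate 2. The library nic1 nic2 replicate 3 had the fewest detected gene models (41283). Values are CPM, the usual unit of counts relative to the library total, here after scaling by the trimmed mean of M values (TMM). CPM are not corrected for gene length, so levels are compared between libraries and not between gene models. Of the 201 gene models, 47 (23.4%) were at 0 in all 16 libraries, against 21.1% of all gene models and 19.4% of the rest of ID group 7. Another 27 had some counts but did not pass the filter on low counts, and 127 (63.2%) were tested, against 67.5% of all gene models.

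Of the 5 gene models of the run, Ntab07g012930-1.1 and Ntab07g012950-1.1 had no counts in any of the 16 libraries. Their absence in the nic lines is thus no difference from K326. The loss named by the choice rests on Ntab07g012920-1.1 and Ntab07g012960-1.1, and weakly on Ntab07g012940-1.1, which was too low to be tested.

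Ntab07g012920-1.1 was at 4.12, 4.10, 2.51 and 2.62 CPM in K326 replicates 1 to 4, and at 1.53, 2.01, 1.22, 0.554 and 2.12 CPM in myc2a replicates 1 to 5. It had 0 counts in each of the 3 nic1 nic2 and 4 nic1 nic2 myc2a libraries. Every K326 and myc2a library was above every library of the nic lines. Against a floor of 3 counts per library, its level was at least 38.5-fold lower in nic1 nic2, and at least 37.7-fold lower in nic1 nic2 myc2a, than the 3.34 ± 0.895 CPM (SD, n = 4) of K326. Its myc2a level was 1.49 ± 0.637 CPM (SD, n = 5). The floor, like the interval below, covers counting error only and takes each count as a separate event. If both mates of a fragment were counted, the floor would be higher and these folds smaller. In whole-root RNA, fewer cells that use a gene and less RNA per cell cannot be told apart.

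Ntab07g012960-1.1 was at 3.00, 2.61, 1.83 and 2.09 CPM in K326 replicates 1 to 4, and at 2.23, 2.68, 2.01, 2.27 and 3.73 CPM in myc2a replicates 1 to 5. It had 0 counts in the 3 nic1 nic2 libraries and in nic1 nic2 myc2a replicates 2, 3 and 4, and 2 counts (0.0584 CPM) in nic1 nic2 myc2a replicate 1. The groups with and without nic1 nic2 again did not overlap. With the same floor, nic1 nic2 was at least 27.5-fold lower than the 2.38 ± 0.524 CPM (SD, n = 4) of K326 and at least 29.8-fold lower than the 2.59 ± 0.685 CPM (SD, n = 5) of myc2a. For nic1 nic2 myc2a the level was 164-fold lower than in K326, with a 95% counting interval from 45.2 to 1360-fold. It rests on 2 counts, which may be the mates of a single fragment, and the interval would then be wider.

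Between them, Ntab07g012940-1.1 had 6, 33, 16 and 0 counts in K326 replicates 1 to 4 and 4, 11, 6, 1 and 0 in myc2a replicates 1 to 5. It had 0 counts in all 7 libraries of the nic lines, as well as in K326 replicate 4 and myc2a replicate 5. Its groups therefore overlapped at 0. Its level in K326 was 0.273 ± 0.230 CPM (SD, n = 4). With the same floor, nic1 nic2 was at least 3.14-fold lower than this mean.

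Summed over the run, K326 had 5.99 ± 1.44 CPM (SD, n = 4) and myc2a 4.19 ± 1.22 (n = 5). The sum was 0 for nic1 nic2 (n = 3) and 0.0146 ± 0.0292 CPM for nic1 nic2 myc2a (n = 4). The lowest library of K326 was at 4.71 CPM and the lowest of myc2a at 2.86 CPM.

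**Figure D1:**
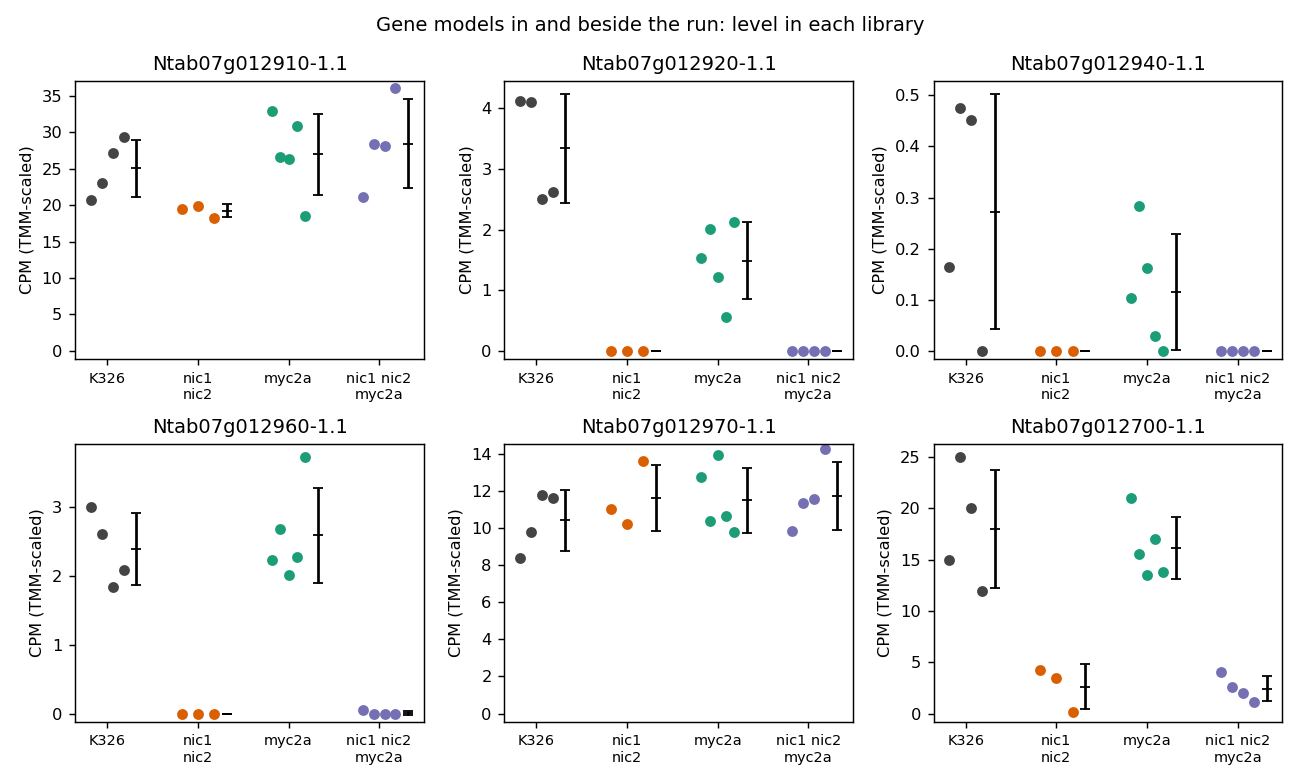
Level in CPM (vertical axes, linear, each with its own range) of 6 gene models in each of the 16 libraries, by genotype; points are libraries in replicate order and the bars give the mean ± SD. Ntab07g012920-1.1 and Ntab07g012960-1.1 are at 0 or at most 0.0584 CPM in the 7 nic libraries, whereas the neighbours Ntab07g012910-1.1 and Ntab07g012970-1.1 are read in all 16.

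The run was delimited by its near absence in the nic lines, so its ends follow from the choice and are described only. The gene model just before it, Ntab07g012910-1.1, had 20.7, 23.0, 27.2 and 29.3 CPM in the K326 libraries, 19.5, 19.9 and 18.2 in those of nic1 nic2, and 21.1, 28.4, 28.1 and 36.1 in those of nic1 nic2 myc2a. In myc2a it was at 27.0 ± 5.54 CPM (SD, n = 5). Its nic1 nic2 libraries all lay below those of K326, while those of nic1 nic2 myc2a overlapped with K326. The gene model just after the run, Ntab07g012970-1.1, had 8.38, 9.79, 11.8 and 11.6 CPM in K326, 11.0, 10.2 and 13.6 for nic1 nic2, and 9.81, 11.3, 11.5 and 14.2 for nic1 nic2 myc2a. In myc2a it was at 11.5 ± 1.76 CPM (SD, n = 5). Relative to K326, these next serials on either side thus had 76.7% and 112% of its mean with nic1 nic2 and 114% and 113% with all 3 alleles. No library of either nic line approached 0 for them.

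Further out the neighbours were also read in both nic lines. Before the run, Ntab07g012860-1.1, Ntab07g012870-1.1 and Ntab07g012900-1.1 had 90.6, 71.4 and 86.8% of the K326 mean with nic1 nic2, and 109, 77.4 and 92.5% with all 3 alleles. After it, Ntab07g012980-1.1, Ntab07g013000-1.1 and Ntab07g013020-1.1 had 95.6, 126 and 98.4% with nic1 nic2, and 45.8, 106 and 97.6% with all 3 alleles. The low value of Ntab07g012980-1.1 in nic1 nic2 myc2a (0.497, 1.49, 1.26 and 0.452 CPM in replicates 1 to 4) overlapped with K326 (3.25, 2.03, 0.790 and 2.01 CPM). For gene models within 250 serials and with at least 1 CPM in K326 or myc2a, the median level was 85.5% (15 before) and 110% (17 after) of K326 in nic1 nic2. It was 93.7 and 108% in nic1 nic2 myc2a, and 102 and 103% in myc2a.

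A further gene model was low in both nic lines without being part of the run. Ntab07g012700-1.1 was at 15.0, 25.05, 19.997 and 12.0 CPM in K326 replicates 1 to 4 and at 21.0, 15.5, 13.5, 17.0 and 13.8 CPM in myc2a replicates 1 to 5. Replicates 1 to 3 of nic1 nic2 had 4.26, 3.51 and 0.114 CPM, and replicates 1 to 4 of nic1 nic2 myc2a had 4.09, 2.58, 1.98 and 1.12 CPM. The 7 nic libraries (at most 4.26 CPM) lay below all 9 others (at least 12.0 CPM). Its mean was 14.6% of K326 for nic1 nic2 and 13.6% for nic1 nic2 myc2a, so it was reduced in level but had counts in every nic library. In nic1 nic2 replicate 3 these were only 4 counts, near the floor of 0.0858 CPM for that library.

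Between Ntab07g012700-1.1 and the run lay 13 gene models with at least 1 CPM in K326 or myc2a. Their means were 64.4 to 171% of K326 for nic1 nic2 and 67.5 to 181% for nic1 nic2 myc2a, so none of them was at as small a share of K326 as Ntab07g012700-1.1. Just before it lay gene models with few counts. Ntab07g012690-1.1 had 1.73 ± 0.737 CPM in K326 (SD, n = 4) and 1.60 ± 0.341 in myc2a (n = 5), against 0.560 ± 0.385 for nic1 nic2 (n = 3) and 1.08 ± 0.609 for nic1 nic2 myc2a (n = 4). Ntab07g012680-1.1, chosen after its values were seen, had 0.652 ± 0.105, 0.671 ± 0.563, 0.0759 ± 0.0847 and 0.279 ± 0.146 CPM in the same order.

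Over the 127 tested gene models, Ntab07g012700-1.1, Ntab07g012920-1.1 and Ntab07g012960-1.1 were the 3 whose 7 nic libraries all lay below the 9 others, and 0 had all nic libraries above. Among all 43009 tested gene models, 0.17% were below in this way and 0.214% above. As the choice used these groups, nothing is read from that share. Split by myc2a instead, 0 gene models of the window had all 9 libraries carrying it above or below the 7 others (0.0233% and 0.0372% of all). A pattern like that of the run was also looked for in the table as a whole. Of 36661 gene models whose mean reached 1 CPM in K326 and in myc2a, 115 of them in the window, 3 had at most 0.1 CPM in each of the 7 nic libraries. They were Ntab07g012920-1.1, Ntab07g012960-1.1 and, in ID group 16, Ntab16g016700-1.1. The last had 1.45 ± 0.0529 CPM in K326 (SD, n = 4), 1.77 ± 0.724 in myc2a (n = 5) and 0 in both nic lines. These limits of level were set after the values were seen, so that gene models of the run met them follows from the choice. How many others met them depends on the limits, and nothing is read from that number.

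**Figure D2:**
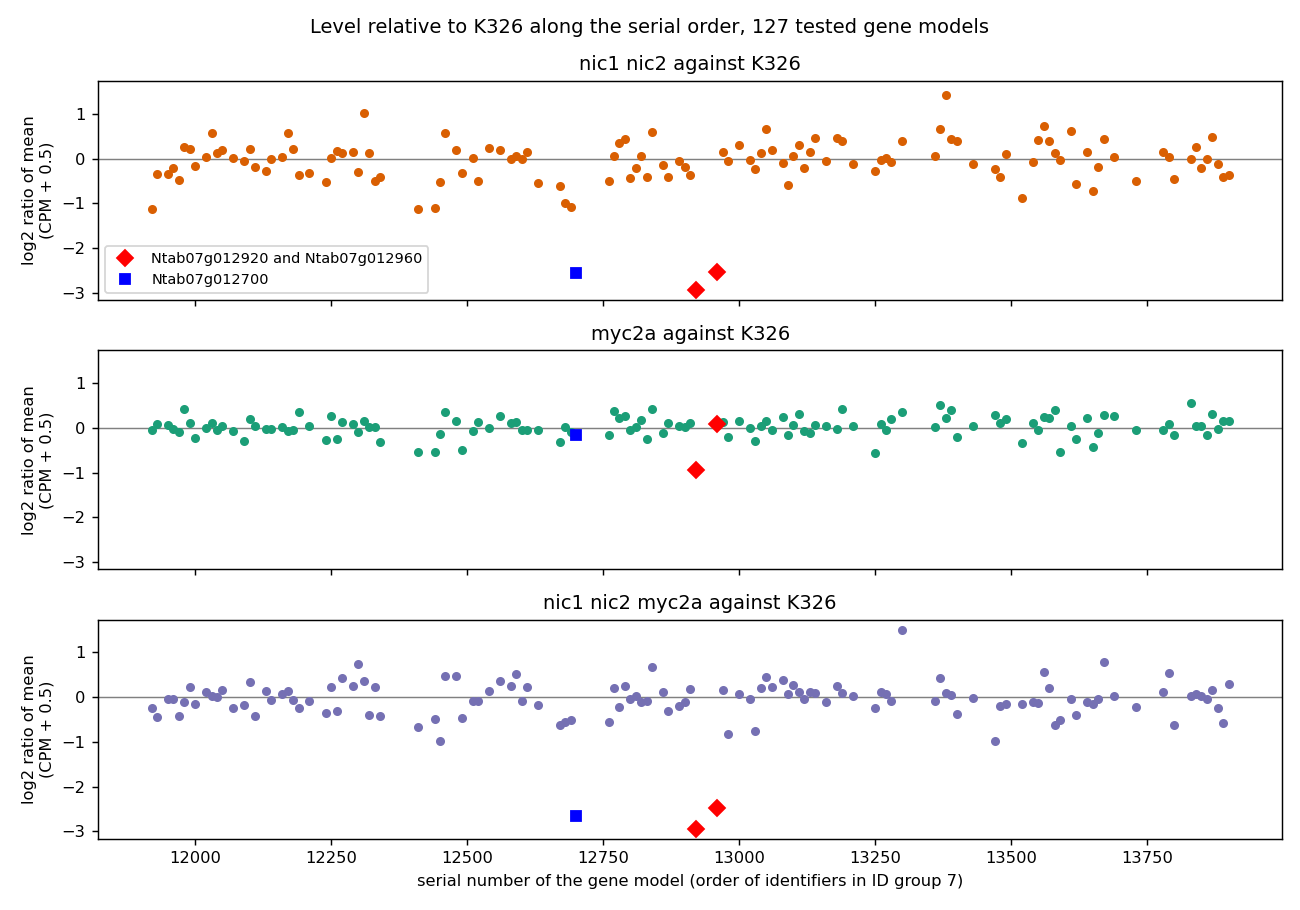
Log2 ratio of the mean level (CPM + 0.5) to that of K326 (vertical axis) against serial number (horizontal axis) for the 127 tested gene models, by genotype. In both nic lines Ntab07g012920-1.1, Ntab07g012960-1.1 and Ntab07g012700-1.1 lie apart from gene models on both sides, and in myc2a Ntab07g012920-1.1 is lower while Ntab07g012960-1.1 and Ntab07g012700-1.1 are close to 0. The pseudocount of 0.5 CPM limits how low a ratio can go.

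Along the whole window the median gene model was close to its K326 level in both nic lines. In nic1 nic2 against K326, 60 tested gene models had a positive and 67 a negative log2 fold change, with a median of -0.01 beside 0.00 over all gene models tested. For nic1 nic2 myc2a against K326 the numbers were 59 and 68, with a median of -0.04 beside -0.01. The quartiles of the log2 fold change were -0.41 and 0.22 in nic1 nic2 and -0.25 and 0.18 in nic1 nic2 myc2a.

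By edgeR's quasi-likelihood test (Benjamini-Hochberg over all gene models tested, threshold 0.05), 4 of 127 gene models were called in nic1 nic2 against K326, beside 0.918% of all tested gene models. All 4 were lower (background 0.579% lower): Ntab07g012630-1.1, Ntab07g012700-1.1, Ntab07g012920-1.1 and Ntab07g012960-1.1. For nic1 nic2 myc2a against K326, 4 were called beside a background of 0.295%. Of these Ntab07g012700-1.1, Ntab07g012920-1.1 and Ntab07g012960-1.1 were lower (background 0.181%) and Ntab07g013670-1.1 higher (0.114%). Against myc2a, 3 were called beside 0.358% in either direction and 0.174% lower, again Ntab07g012700-1.1, Ntab07g012920-1.1 and Ntab07g012960-1.1. DESeq2 called 8, 7 and 5 gene models in these comparisons, in the same order. The share of all gene models that DESeq2 called is not given here, so these counts have no background. The comparisons against K326 share the K326 libraries and include those the choice was made on, so nothing is read from these counts.

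The call of Ntab07g012700-1.1 was lost in 10 of 24 alternative analyses of nic1 nic2 against K326, with an edgeR adjusted p of up to 0.120. These were the fits leaving out any 1 of the 4 K326 libraries, of replicates 2, 3 and 4 of myc2a, replicate 2 of nic1 nic2, or replicate 3 of nic1 nic2 myc2a, and the fit leaving out replicate 2 of K326 and replicate 3 of nic1 nic2 at once. For nic1 nic2 myc2a against K326 it was lost in 7 of 24 (edgeR adjusted p up to 0.134), without K326 replicates 1, 2 or 3, without replicates 2 or 4 of myc2a, and without replicates 2 or 4 of nic1 nic2 myc2a. Against myc2a it was lost in 13 of 24 (edgeR adjusted p up to 0.134). These were the fit with the replicate number as a block, and those leaving out any 1 of replicates 1, 2 and 3 of K326, replicates 2 to 5 of myc2a, replicate 2 of nic1 nic2, or the 4 nic1 nic2 myc2a libraries. The number of called gene models in nic1 nic2 against K326 was 2 without K326 replicate 2 or replicate 4. For nic1 nic2 myc2a against K326 it was 2 without K326 replicates 1, 2 or 3, without replicate 4 of myc2a, and without replicates 2 or 4 of nic1 nic2 myc2a. Against myc2a it was 5 without myc2a replicate 1.

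Among the other called gene models, Ntab07g012630-1.1 was at 18.0, 21.0, 18.3 and 20.9 CPM in K326 and at 13.0, 13.5 and 13.4 CPM in nic1 nic2. These groups did not overlap, as was the case for 30 of the 127 gene models (23.6%) in nic1 nic2 against K326. The share over all gene models is not given here for this comparison, so nothing is read from that count. The nic1 nic2 myc2a libraries lay between them or within K326 (18.8, 16.6, 17.2 and 16.2 CPM). Ntab07g013670-1.1 was at 29.1, 26.7, 28.3 and 30.7 CPM in K326 and at 46.6, 55.8, 41.4 and 54.4 CPM in nic1 nic2 myc2a. The nic1 nic2 libraries, at 37.5, 43.6 and 35.4 CPM, lay above K326 and overlapped with nic1 nic2 myc2a. Those of myc2a, at 47.6, 31.0, 26.8, 38.1 and 33.5 CPM, overlapped with both.

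The other gene models named for the size of their difference from K326 often had uneven replicates, and edgeR called none of them in that comparison. Since they were picked by that size, groups without overlap are only described for them, here and with all 3 alleles. DESeq2 called Ntab07g013560-1.1 in nic1 nic2 (adjusted p = 0.0453) and Ntab07g013300-1.1 in nic1 nic2 myc2a (adjusted p = 0.0369). With nic1 nic2, Ntab07g012440-1.1 had 1.69, 1.95 and 2.14 CPM, below the 4.67, 6.39, 3.72 and 4.26 CPM of K326, without overlap. Ntab07g013380-1.1 was at 4.597, 2.68 and 6.23 CPM in nic1 nic2 against 1.58, 2.09, 0.931 and 0.907 CPM in K326, also without overlap. Ntab07g013560-1.1 was at 11.3 ± 3.55 CPM (SD, n = 3) against 6.67 ± 0.701 (n = 4), and Ntab07g012840-1.1 at 2.30 ± 1.53 against 1.34 ± 0.421.

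With all 3 alleles, Ntab07g013300-1.1 was at 3.71, 10.9, 5.35 and 4.98 CPM against 1.04, 0.763, 3.19 and 2.47 CPM in K326. All 4 libraries of that line lay above all 4 of K326. Ntab07g012300-1.1 had 3.13, 2.06, 1.68 and 0.784 CPM there against 0.601, 1.57, 1.16 and 0.403 in K326, with overlap. Ntab07g013470-1.1 was at 1.40, 6.53, 7.57 and 2.78 CPM against 10.4, 7.78, 10.6 and 8.99 CPM, below K326 in every library.

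The comparison of myc2a with K326 was not used to choose the gene models. By edgeR's test 0 of 127 were called, beside 0.17% of all gene models tested. DESeq2 and limma-voom also called 0, and 7 had an unadjusted edgeR p under 0.05 (5.51%, beside 5.21% of all). The median log2 fold change was 0.04, beside 0.00 over all gene models, with quartiles of -0.08 and 0.16. The typical size of a difference, as the median absolute log2 fold change, was 0.14 and thus close to the 0.15 of all gene models.

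The gene models of the run could be set side by side in myc2a, where both were read. Ntab07g012920-1.1 was lower in all 5 myc2a libraries (at most 2.12 CPM) than in all 4 K326 libraries (at least 2.51 CPM), and its log2 fold change was -1.16 ± 0.42 (SE). This did not pass the correction (edgeR unadjusted p = 0.0169, adjusted p = 0.749, range 0.133 to 1 over 24 alternatives). For Ntab07g012960-1.1 it was 0.12 ± 0.40 (SE, edgeR adjusted p = 1.00), with overlapping groups. Outside the run, Ntab07g012700-1.1 had -0.16 ± 0.48 (SE, edgeR adjusted p = 1.00). Whether these gene models differ from each other in their response was not tested.

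Groups without overlap in myc2a against K326 occurred in 3 of the 127 gene models, all lower (2.36%, beside 1.35% of all gene models), and in 0 higher (beside 0.993%). Besides Ntab07g012920-1.1 these were Ntab07g012090-1.1 (18.6 to 23.0 CPM in myc2a, 23.2 to 30.3 in K326) and Ntab07g012240-1.1 (10.8 to 13.6 against 14.0 to 17.0 CPM). Both are named after their values were seen, and the gaps between their groups are small. The fitted log2 fold change of Ntab07g013390-1.1 (5.68 ± 2.097, SE) rests on levels of at most 0.466 CPM in myc2a and no counts in K326.

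The comparison of nic1 nic2 myc2a with nic1 nic2 was also not used as such for the choice. The run, however, was chosen as near absent in both lines. It had 2 counts there in all, so for its gene models the lack of a call follows from the choice. Here too edgeR called 0 of 127 gene models, beside 0.405% of all, and DESeq2 and limma-voom called 0. An unadjusted edgeR p under 0.05 was found for 21 gene models (16.5%, beside 13.2% of all). The median log2 fold change was 0.01, beside -0.01 over all gene models. Leaving out nic1 nic2 myc2a replicate 2 gave 1 call, Ntab07g013550-1.1.

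The smallest p in that comparison belonged to Ntab07g013550-1.1, with 47.1, 49.6 and 61.0 CPM in nic1 nic2 and 34.2, 48.2, 27.8 and 32.5 CPM in nic1 nic2 myc2a. The groups overlapped, and the log2 fold change was -0.56 ± 0.16 (SE, edgeR adjusted p = 0.189). Ntab07g012630-1.1 was higher by 0.37 ± 0.11 in nic1 nic2 myc2a (SE, edgeR adjusted p = 0.208), without overlap of the groups. Ntab07g012910-1.1, directly beside the run, was higher by 0.57 ± 0.19 (SE, edgeR adjusted p = 0.257), with 19.5, 19.9 and 18.2 CPM in nic1 nic2 against 21.1, 28.4, 28.1 and 36.1 CPM. None of these passed the correction.

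Without overlap, 7 gene models were higher in nic1 nic2 myc2a than in nic1 nic2 (5.51%, beside 6.04% of all) and 10 lower (7.87%, beside 5.05%). Ntab07g012330-1.1 was among the higher ones, with 223, 215 and 113 CPM in nic1 nic2 against 267, 251, 329 and 385 CPM in nic1 nic2 myc2a (log2 fold change 0.74 ± 0.26, SE, edgeR adjusted p = 0.261). Ntab07g012070-1.1 was among the lower ones, with 135, 130 and 163 CPM against 128, 118, 115 and 117 CPM (-0.25 ± 0.12, SE, edgeR adjusted p = 0.372).

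**Figure D3:**
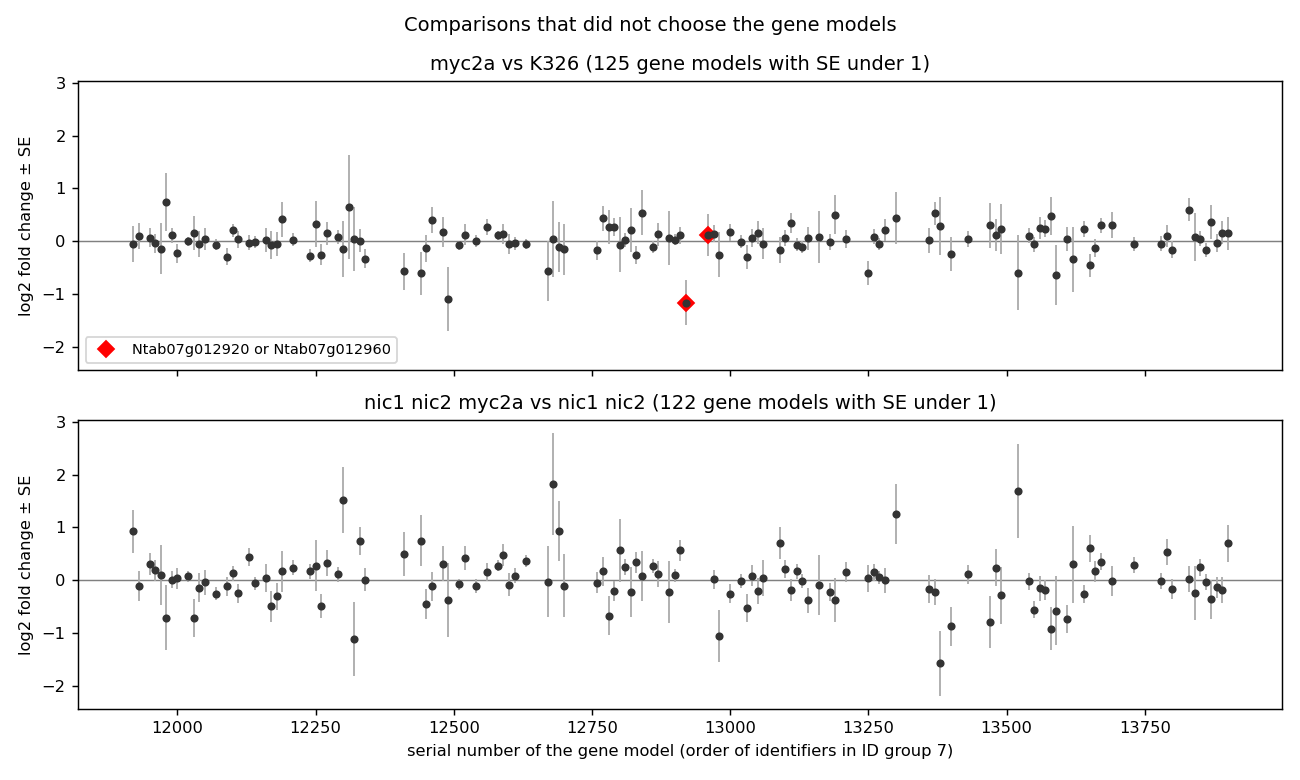
Log2 fold change ± SE from edgeR (vertical axis) against serial number (horizontal axis) for myc2a against K326 (125 gene models) and nic1 nic2 myc2a against nic1 nic2 (122), leaving out gene models with an SE of 1 or more or with no counts in either group. Values scatter around 0 over the whole window, and Ntab07g012920-1.1 has -1.16 in myc2a.

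The interaction asked whether myc2a changed a gene model differently with and without nic1 nic2, and was called by edgeR for 0 of 127 gene models, beside 0.235% of all. DESeq2 and limma-voom called 0, and 15 had an unadjusted edgeR p under 0.05 (11.8%, beside 9.86% of all). In the case of Ntab07g012920-1.1 no interaction can be measured, because both nic lines were without counts.

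The spread between replicates was close to that of the whole table. The median coefficient of variation of gene models with at least 1 CPM in the group was 15.6% for K326 (115 gene models), 20.5% for myc2a (115), 21.5% for nic1 nic2 (109) and 15.9% for nic1 nic2 myc2a (111). Over all gene models tested it was 14.5, 19.7, 21.4 and 16.4%.

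Some gene models varied together between replicates. After subtraction of the genotype means, Ntab07g011920-1.1 and Ntab07g013730-1.1 had a Pearson correlation of 0.90 over the 16 libraries, the highest of 6555 pairs among 115 gene models, and Ntab07g011920-1.1 and Ntab07g012330-1.1 of 0.87. This is a description, and the points share libraries and depth. Ntab07g012330-1.1 was lowest in nic1 nic2 replicate 3 (113 CPM) and myc2a replicate 5 (154 CPM) and highest in nic1 nic2 myc2a replicate 4 (385 CPM) and myc2a replicate 1 (381 CPM). Ntab07g013730-1.1 was likewise lowest in nic1 nic2 replicate 3 (62.4 CPM) and myc2a replicate 5 (74.8 CPM). Over all pairs the median correlation was 2.94e-05, and it was 0.08 for the 114 pairs next to each other in serial order.

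Among the other gene models with the highest counts, Ntab07g013270-1.1 was steady, with 133 ± 3.72 CPM in K326 (SD, n = 4), 128 ± 9.59 in myc2a (n = 5), 133 ± 17.0 for nic1 nic2 (n = 3) and 139 ± 15.7 for nic1 nic2 myc2a (n = 4). Ntab07g012450-1.1 had 127 ± 32.2, 115 ± 28.4, 88.4 ± 17.6 and 64.4 ± 29.1 CPM in the same order. Its nic1 nic2 myc2a libraries (48.1, 63.5, 106 and 40.4 CPM) overlapped with K326 (174, 105, 109 and 120 CPM) through replicate 3. The main edgeR fit did not call it there (adjusted p = 0.134), but 2 of 24 alternatives did, DESeq2 and edgeR without that replicate. Against myc2a 1 of 24 called it, edgeR without that replicate (adjusted p = 0.0259). Ntab07g013730-1.1 was called in nic1 nic2 against K326 by DESeq2 (adjusted p = 0.0416) but not by edgeR (adjusted p = 0.112).

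In blocks of serials, the median log2 ratio of gene models to the mean of all libraries lay between -0.42 and 0.62. Both ends belonged to nic1 nic2 replicate 3, with -0.42 in serials 12650 to 12899 (13 gene models) and 0.62 in 13400 to 13649 (14). In the first of these blocks myc2a replicate 5 was at 0.41. In serials 12400 to 12649 (14 gene models) the 3 nic1 nic2 libraries, at -0.14, -0.16 and -0.10, were the lowest of the 16, and the others lay between -0.08 and 0.14. The median log2 fold change of that block in nic1 nic2 against K326 was nevertheless -0.003. It was -0.23 in serials 12650 to 12899 and between -0.06 and 0.13 in the remaining blocks. In nic1 nic2 myc2a against K326 it was -0.09 in serials 12650 to 12899 and lowest, at -0.16, in 13400 to 13649. Over the whole window, without the run, the median was between -0.08 and 0.12 in each library (113 gene models). The differences between groups in these blocks were not tested.

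**Figure D4:**
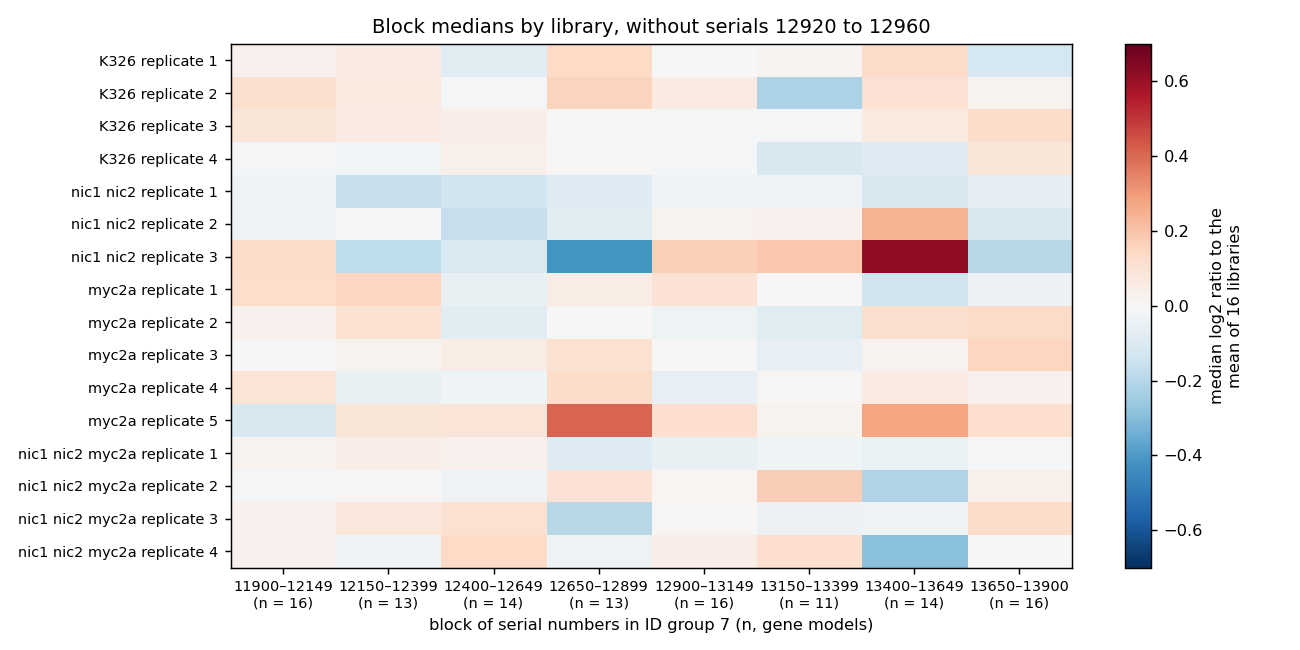
Median log2 ratio of CPM + 0.5 to the mean of the 16 libraries (colour) in blocks of serial numbers (columns, with the number of gene models) for each library (rows), without the run from Ntab07g012920-1.1 to Ntab07g012960-1.1. The library nic1 nic2 replicate 3 holds both extremes, -0.42 and 0.62, and the other libraries lie between them.

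At the ends of the window the nearest tested gene models were read in all genotypes. Just inside, Ntab07g011920-1.1 had 24.5 ± 2.62 CPM (SD, n = 4, K326) and 10.9 ± 6.28 (n = 3, nic1 nic2), and Ntab07g013900-1.1 had 11.4 ± 1.98 and 8.76 ± 2.76 CPM. Just outside, Ntab07g011890-1.1 was at 57.2 ± 3.73 and 37.8 ± 9.47 CPM, and Ntab07g013910-1.1 at 40.1 ± 3.96 and 56.1 ± 17.4 CPM. For nic1 nic2 myc2a (n = 4) the first pair was at 20.6 ± 3.90 and 14.2 ± 4.09 CPM and the second at 45.6 ± 4.31 and 42.0 ± 5.54 CPM.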

How the data were processed

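Root RNA was sequenced in 16 libraries made with a directional kit, per the labels' protocols. The deposited table gives raw counts per gene model and library. The submitters' processing notes name HISAT2 2.1.0 beside FastQC, SAMtools and bedtools, while build, annotation and counting settings are not given in the sources used here. Between 59.7 and 65.6% of low counts were even, so both mates of a pair may have been counted, and counts cannot be read as fragments. Columns were matched to samples by name, the 4 columns of nic1 nic2 myc2a by genotype letters and number, with 0 columns unused. Of 63697 identifiers, 0 matched the RefSeq gene table, so gene lists and sequences are not used here.

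The analysis used edgeR 4.0.16 (R 4.3.3): filterByExpr at its defaults (43009 gene models left), TMM scaling, and a quasi-likelihood fit with 1 mean per genotype to all 16 libraries. P-values were adjusted by Benjamini-Hochberg over all gene models tested, with a threshold of 0.05. The SE is the log2 fold change divided by the square root of the F statistic. Fitted log2 fold changes of gene models without counts are not bounds, so folds there use a floor of 3 counts per library. The procedure was tested on simulated data. Gene models named are those of the run, the 4 nearest on each side with at least 1 CPM, any called in the comparisons outside the choice, the 5 with the highest mean CPM, and, of the remaining gene models whose higher group averaged 1 CPM or more, the 3 largest rises and falls of each nic line against K326. Others were named after their values were seen, among them those called against K326. Members and lists were chosen with earlier results of these data known. Alternatives were other scalings, filters and tools (DESeq2 1.42.0, limma-voom 3.58.1), a replicate block and leaving out libraries. Replicates of a genotype differed by more than sampling noise.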

Additional observations from a re-analysis of the deposited data

Results flagged for a closer look

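In nic1 nic2 myc2a, replicate 1 stood apart from the other 3 libraries for Ntab07g012960-1.1, with 0.0584 CPM against 0 in each of the others, and so did the summed level of the run from Ntab07g012920-1.1 to Ntab07g012960-1.1 (0.0584 CPM against 0). Both values rest on the same 2 counts. In myc2a, replicate 1 stood apart for Ntab07g013300-1.1, with 5.05 CPM against 1.35 to 2.42 CPM in the other 4 libraries. Of 76 groups examined in this way 3 stood out, and chance alone marks about 1 in 20.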

How the results depend on the processing

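In myc2a against K326 and in the interaction, 0 gene models were called under every alternative run. In nic1 nic2 myc2a against nic1 nic2 the count was 0 to 1 with each library left out in turn and 0 otherwise. In nic1 nic2 against K326 it was 2 to 4 with a library left out, 8 with DESeq2, and 2 with replicate 2 of K326 and replicate 3 of nic1 nic2 left out at once, a setting chosen after seeing the data. In nic1 nic2 myc2a it was 2 to 5 with a library left out and 7 with DESeq2 against K326, and 2 to 5 and 5 against myc2a. The DESeq2 counts have no share over all gene models beside them and are not compared with those of edgeR. With the replicate block the count was 3 and 3 against K326 in nic1 nic2 and nic1 nic2 myc2a, and 2 against myc2a. Same-numbered libraries of different genotypes had correlated deviations (over 0.1) in 8 of 21 pairs, and differently numbered ones in 23 of 74. As not every same-numbered pair was over 0.1 and the labels tie no number to a plant or batch, the numbers were not taken to pair the libraries.

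The median log2 fold changes moved by more than the spread of library medians (0.033) in places, and the cause was not tested. With library size only they were -0.036 in nic1 nic2 myc2a against nic1 nic2, -0.046 in the interaction, and 0.081 and 0.0075 in nic1 nic2 and nic1 nic2 myc2a against K326. With limma-voom they were 0.060 in the interaction and -0.061 in nic1 nic2. With the replicate block they were -0.011 in myc2a and 0.065 in the interaction. Without both of these libraries they were 0.063 against nic1 nic2 and -0.085 in nic1 nic2 against K326. With a library left out in turn they ranged from -0.0080 to 0.058 in myc2a, 0 to 0.071 against nic1 nic2, -0.033 to 0.043 in the interaction, -0.089 to -0.0073 in nic1 nic2, -0.070 to 0.0015 in nic1 nic2 myc2a, and -0.076 to -0.017 against myc2a. The summed level of the run moved by less than its SD under every alternative run. Depth limits what near absence means, since 0 counts allow a level of up to 3 counts per library.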
